A study of Homo sapiens with 6 samples.

Results

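The cleavage sites of 8 HNRNP genes were followed in HEK293, a line of human embryonic kidney cells, after siRNA against subunits of cleavage factor Im (CF Im). The genes were taken by fixed windows on the build hg19, and all reads on the gene's strand inside a window were counted. The windows were chr12:54674000-54681000 (HNRNPA1, plus strand), chr7:26228000-26241000 (HNRNPA2B1, minus), chr2:178077000-178090000 (HNRNPA3, plus), chr14:21676000-21738000 (HNRNPC, minus), chr4:83273000-83296000 (HNRNPD, minus), chr5:179040000-179051500 (HNRNPH1, minus), chr9:86581500-86596000 (HNRNPK, minus) and chr1:245012000-245028500 (HNRNPU, minus). These 8 windows stand beside 28114 units in the whole data set, a unit being a run of neighbouring cleavage sites on 1 strand with gaps of at most 5 kb. The windows were given by coordinate, and exons, introns and untranslated regions are not assigned, because annotation of hg19 was not used here.

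In A-seq, the assay used, polyadenylated RNA is fragmented and copied from a primer anchored where the poly(A) tail begins. The end of each read thus marks a cleavage and polyadenylation site, or poly(A) site. There were 6 libraries, 1 per group. In 4 of them the RNA was fragmented by alkaline hydrolysis: cells without siRNA, with the scrambled siRNA scrambled-A, with the Ambion siRNA S224836 against CF Im25 and with the Ambion siRNA S21772 against CF Im59. In the other 2, with scrambled-A and with a Dharmacon oligo against CF Im68, it was digested with RNase I. The labels name this oligo by its sequence, shown here 5′ to 3′ without its leading unspecified bases because it defines the CF Im68 group:
CF Im68 siRNA: gaccgagauuacauggaua

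Cells given siRNA were harvested after 3 days. Each target was addressed by 1 siRNA, the labels mention a Western blot check of the treatment, and neither the targets' RNA nor marker genes of the cell line were analysed here. The series asks how CF Im bears on the length of 3' untranslated regions.

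Heterogeneous nuclear ribonucleoproteins (hnRNPs) are abundant nuclear proteins that coat newly made transcripts and take part in splicing, export, stability and translation of RNA. Several of them regulate their own messages through splicing or through 3' end choice. CF Im is a complex of CF Im25 with CF Im59 or CF Im68; it binds UGUA motifs upstream of poly(A) sites and helps select which site is used. Use of a site nearer the stop codon gives a shorter 3' untranslated region with fewer binding sites for regulators.

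The libraries held 5351980 reads (scrambled siRNA, RNase I) to 18183644 reads (no siRNA), and mitochondrial reads took 1.07% to 8.37%, the highest share being in the CF Im68 siRNA library. The windows held 265 reads (HNRNPK, CF Im25 siRNA) to 37135 reads (HNRNPA1, CF Im68 siRNA). Levels are given as CPM, reads scaled to 1000000 reads on nuclear chromosomes, and all windows lay between percentile 80.9 and 99.9 of the units of their library. Reads on the opposite strand numbered 0 to 21 per window. Every group is a single library, so no difference was tested against a spread between replicates, and no p-value is given. Intervals are 95% intervals and cover counting error only. Copies made by PCR are not independent molecules, so that the intervals can be too narrow.

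The scrambled siRNA libraries differed between fragmentation methods in most of the 8 genes, and comparisons of knockdowns were therefore kept within a method. The measure of site use is the proximal share, the percentage of reads at the 2 most used sites of a window that lie at the upstream site. A change is called when it reaches 20 percentage points, both libraries hold at least 50 reads at the pair, and the interval of the difference excludes 0. A two-site unit is one whose second most used site holds at least 5% of the reads at its sites in the mean over libraries. Units with further sites are included, by their 2 most used sites. Between RNase I and alkaline hydrolysis, 4 genes were called proximal and 2 distal, in a comparison that called 45.7% of all two-site units in either direction (24.7% proximal and 21.1% distal). The proximal share of HNRNPA1 was 26.5% in the alkaline and 87.2% in the RNase I library, that of HNRNPK was 14.4% and 79.0%, and that of HNRNPC was 38.4% and 90.1%. HNRNPD and HNRNPU went the other way, from 60.2% to 25.2% and from 57.7% to 22.6%. Neither direction held under every alternative: with ends gathered within 10 nt in place of 25 nt HNRNPU changed by 22.1 points, and with the last described site set against all other reads HNRNPD changed by 5.16 points. At HNRNPU the 10 nt radius leaves out the most frequent RNase I end of the downstream site, which lies 14 nt away. HNRNPC turned from 51.7 to -0.663 points with the last site. Total reads of 5 genes were at least 2-fold higher with RNase I, where 23.8% of units were called higher and 34.8% lower (58.6% in all), led by HNRNPA2B1 at 335 and 2530 CPM. The 2 methods were run on separate samples, so method and sample cannot be told apart.

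A single set of poly(A) sites served all libraries, each site gathering ends within 25 nt of its highest position. The 8 windows held 50 sites, of which 30 had at least 5% of their window's reads in the mean over libraries and are described by position. The windows of HNRNPC and HNRNPD each held sites of 2 units. HNRNPA3 had 7 such sites spread over 6942 nt, and 1 further site of its unit lay outside the window. HNRNPC had 5 spread over 2723 nt, and HNRNPA2B1 had 4 over 1919 nt. HNRNPA1, HNRNPD, HNRNPK and HNRNPU had 3 each, over 2207, 1487, 187 and 1026 nt, and HNRNPH1 had 2, 227 nt apart. The other 20 sites held at most 9.78% of a window's reads in sum except in HNRNPD, where 5 such sites took 2.26% to 20.2%. Described sites not given by position further below are 54678664 (HNRNPA1), 26229748 (HNRNPA2B1), 178084860 (HNRNPA3), 21680032 (HNRNPC) and 86583186 (HNRNPK). With RNase I, 54678664 held 73.6% with scrambled and 71.4% with CF Im68 siRNA, and 86583186 held 75.6% and 77.6%. The site at 21680032 held 19.4% with scrambled siRNA under alkaline hydrolysis and 0.773% with RNase I. Under alkaline hydrolysis, 178084860 held 20.7% with scrambled and 6.59% with CF Im25 siRNA, and 26229748 held 9.58% and 6.57%. With RNase I, 178084860 held 7.30% with scrambled and 2.96% with CF Im68 siRNA, and 26229748 held 1.78% and 2.67%. The most frequent nucleotide of a site was the same in the 4 alkaline libraries at 26 of the 30 sites and in all 6 libraries at 19. No sequence around the sites was read, so whether any of them lies at an A-rich stretch of the genome was not tested.

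**Figure D1:**
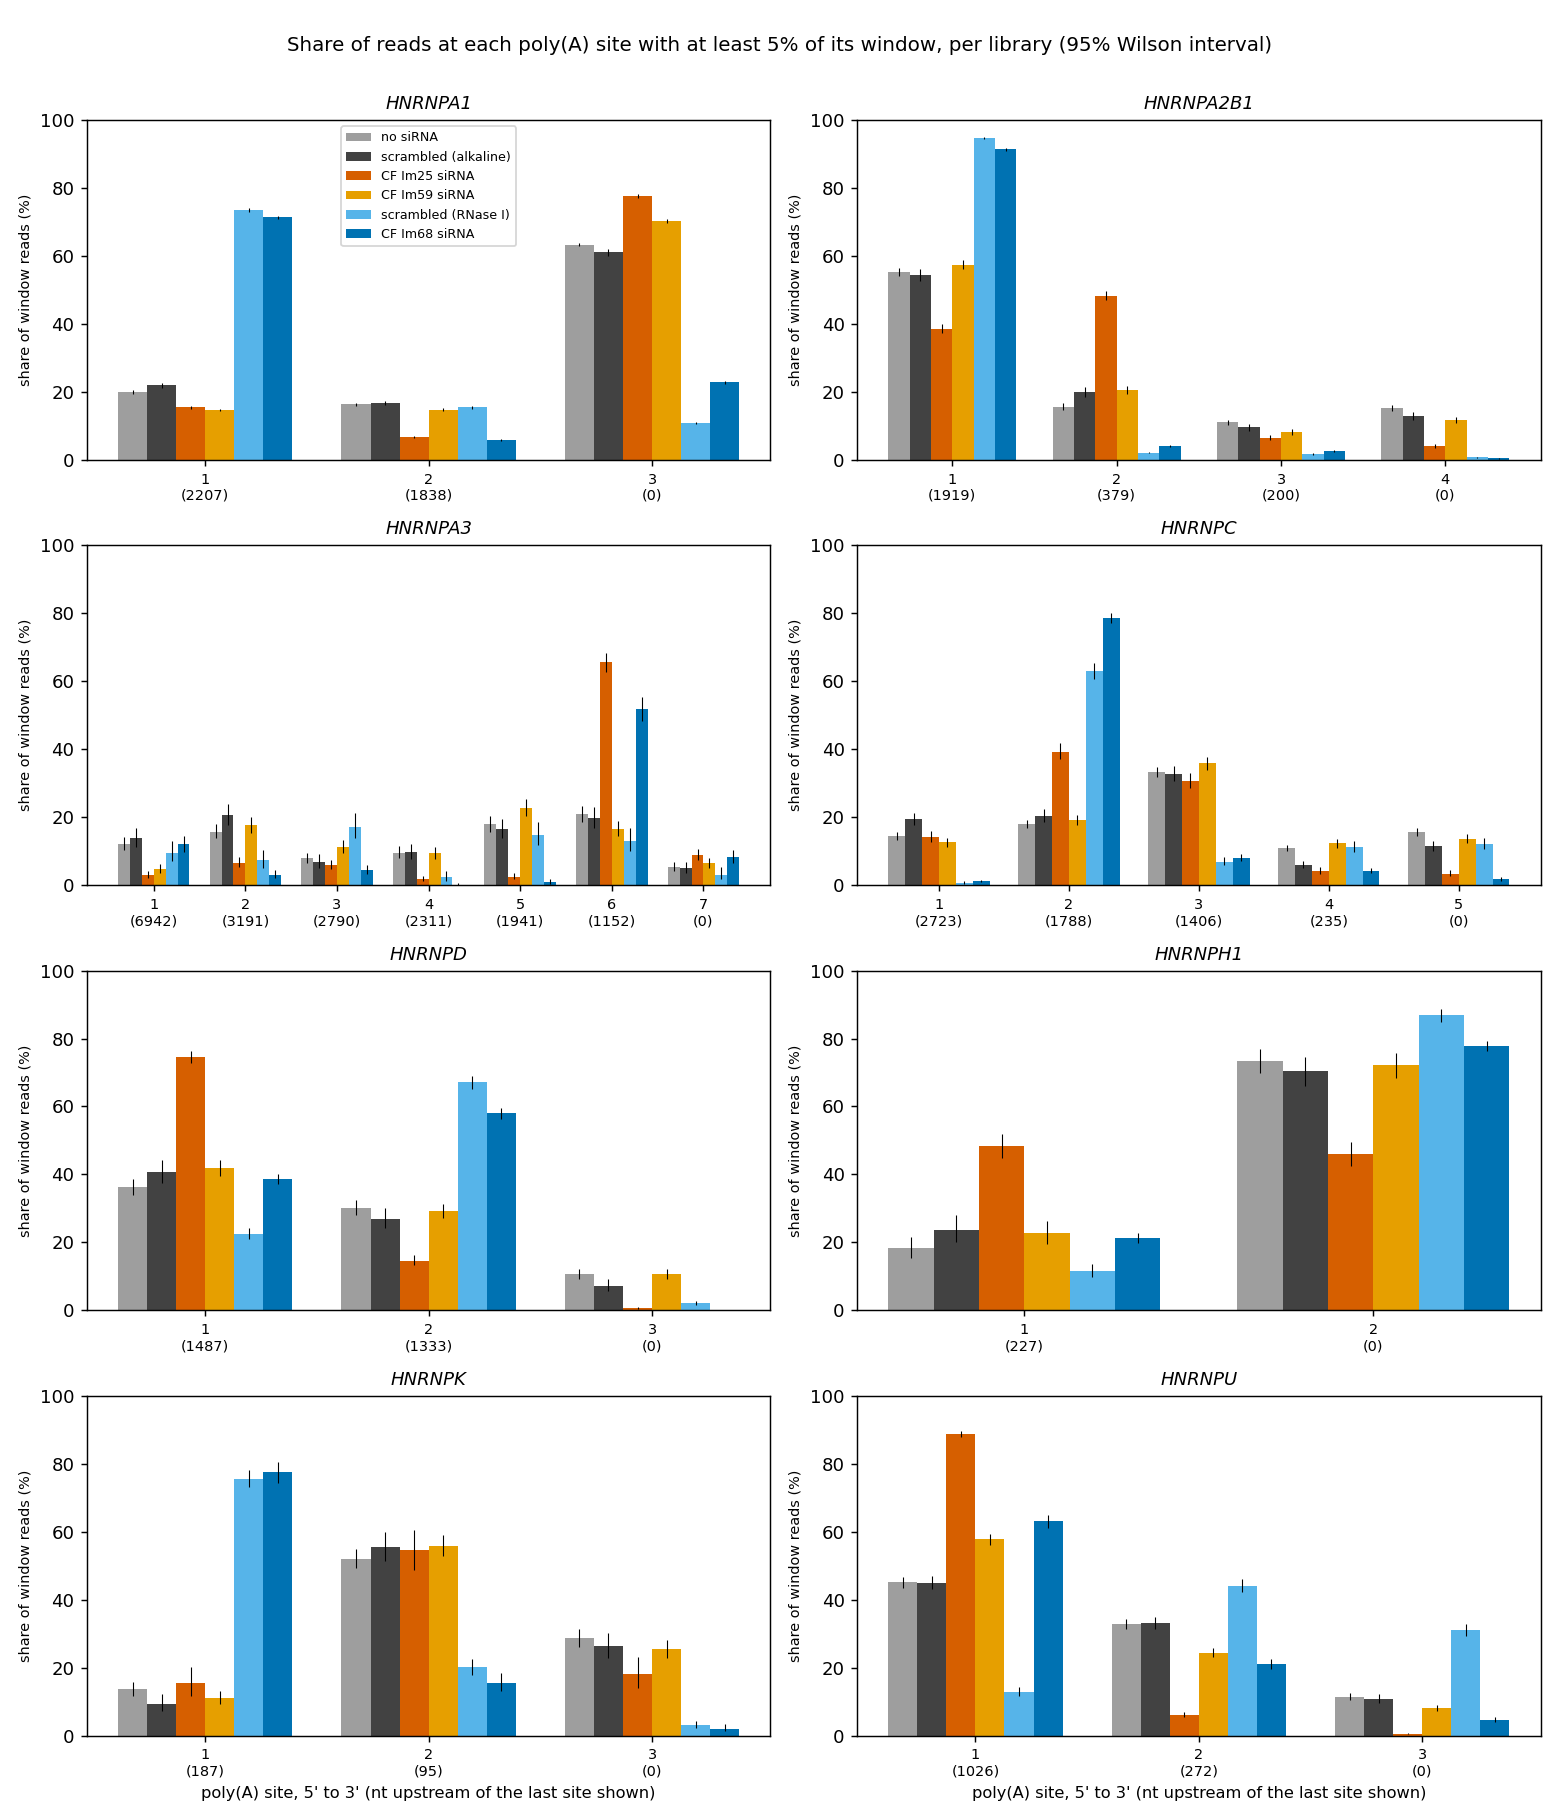
Each panel shows 1 gene, with its described poly(A) sites from 5' to 3' on the x axis (distance in nt upstream of the last one in parentheses) and the share of the window's reads in percent on the y axis. Bars are single libraries and lines are 95% Wilson intervals. The sixth site of HNRNPA3 holds 65.6% (CF Im25 siRNA) and 51.8% (CF Im68 siRNA) and at most 20.9% elsewhere, and the first site of HNRNPU holds 88.8% after CF Im25 siRNA.

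HNRNPA3 and HNRNPU were the 2 genes called in both the CF Im25 and the CF Im68 comparison, and they moved in opposite directions along the transcript. These calls are for the pair of most used sites. When the last described site was set against all other reads, HNRNPA3 was called in neither comparison (-3.99 and -5.22 points), and HNRNPU was called after CF Im68 siRNA (26.3 points) but not after CF Im25 siRNA (10.2 points). With ends within 10 nt HNRNPU was not called after CF Im68 siRNA, at 12.8 points. After CF Im25 siRNA, 3 of the 8 genes were called proximal (HNRNPD, HNRNPH1 and HNRNPU) and 2 distal (HNRNPA2B1 and HNRNPA3), where 18.3% of all two-site units were called proximal and 2.81% distal (21.1% in all). The median change of the 8 genes was 12.7 points, against 4.19 points over the 6702 units tested. After CF Im68 siRNA, HNRNPU was called proximal and HNRNPA3 distal, with 24.4% and 1.78% of units called in these directions (26.2% in all). The median change was 2.48 points, against 5.51 points over 5291 units. After CF Im59 siRNA none of the 8 was called, where 7.29% of units were (2.53% proximal, 4.76% distal). None was called for no siRNA against scrambled siRNA, where 3.73% of units were (1.21% proximal, 2.52% distal). The CF Im25, CF Im59 and no siRNA comparisons share the alkaline scrambled siRNA library, whereas the CF Im25 and CF Im68 comparisons share no library.

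**Figure D2:**
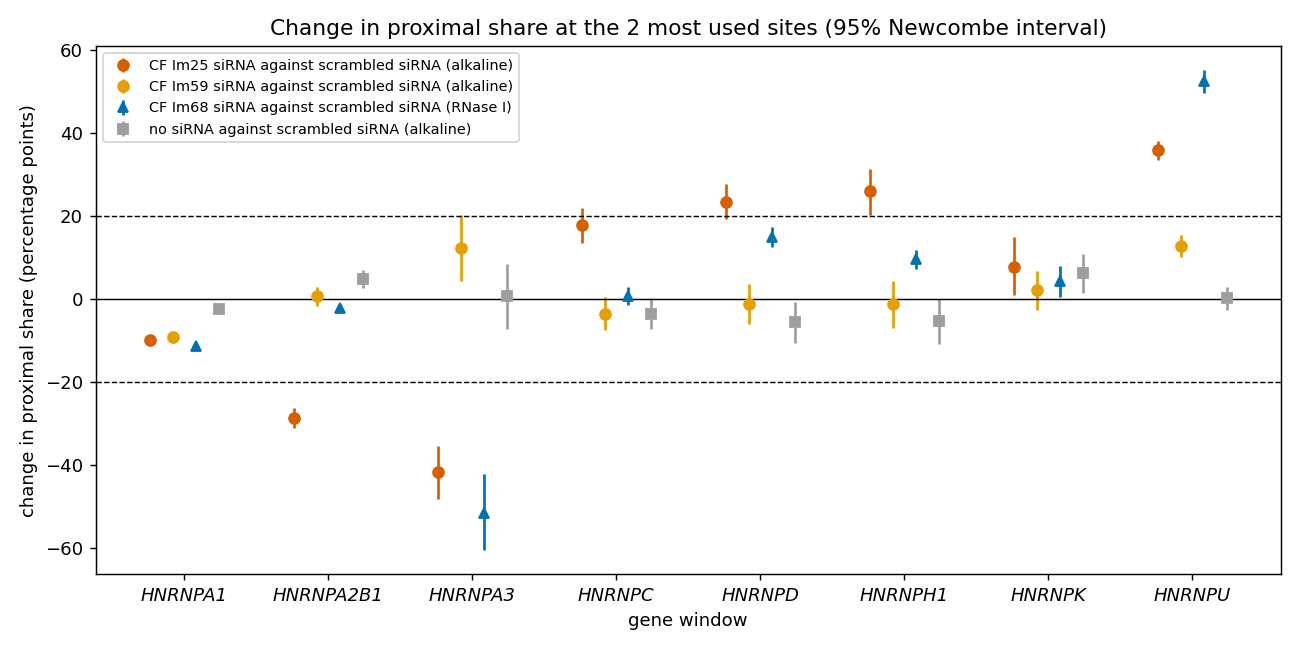
The change in proximal share is plotted in percentage points on the y axis for each gene on the x axis, with symbols for the 4 comparisons, 95% Newcombe intervals as lines and dashed lines at the 20-point limit. HNRNPA3 lies at -41.8 and -51.4 points and HNRNPU at 35.8 and 52.4 points after CF Im25 and CF Im68 siRNA, while the grey squares for no siRNA all lie within 6.34 points of 0.

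HNRNPA1, HNRNPA2B1 and HNRNPA3 encode the A/B proteins, close relatives with paired RNA recognition motifs that bind exons and introns and influence splice site choice. HNRNPA3 spread its 3' ends over more sites than the other 7 genes in the control libraries, and 1 site took most of its reads after CF Im25 and CF Im68 siRNA. Its site at 178086899 held 20.9% of the window's reads without siRNA, 19.7% with scrambled, 65.6% with CF Im25 and 16.6% with CF Im59 siRNA under alkaline hydrolysis. With RNase I it held 13.1% with scrambled and 51.8% with CF Im68 siRNA. Both the CF Im25 and the CF Im68 library thus stood far above the other 4, which lay between 13.1% and 20.9%.

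On the CPM scale, the HNRNPA3 site at 178086899 was 5.51-fold higher after CF Im25 siRNA, from 13.4 to 73.6 CPM (interval of the ratio 4.56 to 6.70). After CF Im68 siRNA it was 3.33-fold higher, from 10.1 to 33.8 CPM (interval 2.49 to 4.54). The last described site, 1152 nt further downstream at 178088051, was 2.99-fold and 2.30-fold higher. Beyond it lay 2 smaller sites, which held lower shares after both siRNAs. The site at 178088584 held 3.11% with scrambled and 0.592% with CF Im25 siRNA, and 2.77% and 0.129% in the RNase I pair. The site at 178088687 held 1.55% and 1.01%, and 5.79% and 0.644%, on 5 to 23 reads. Reads upstream of 178086899, including those at no poly(A) site, made up 70.2% of the window's reads after scrambled siRNA and 21.1% after CF Im25 siRNA. In the RNase I pair they made up 63.5% and 24.7%. The poly(A) sites of the window together held 75.8% and 81.1% of its reads in that pair, against 96.7% and 95.9% in the alkaline pair.

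Most upstream HNRNPA3 sites were lower in CPM as well as in share. The nearest, at 178086110, had 106 reads in the scrambled and 30 in the CF Im25 siRNA library, 3.92-fold lower in CPM (interval 2.59 to 6.09). In the RNase I pair it had 59 and 7 reads, 19.6-fold lower (interval 8.93 to 50.8). The site at 178085740 had 62 and 21 reads in the CF Im25 comparison, 3.28-fold lower. In the CF Im68 comparison it had 9 reads in the scrambled and 0 in the CF Im68 library, at least 6.97-fold lower when 3 reads are taken as the limit that a count of 0 allows (0.252 CPM). Exceptions were 178085261 after CF Im25 siRNA (4.63 and 6.54 CPM, ratio interval 0.955 to 2.11) and 178081109 after CF Im68 siRNA (7.41 and 7.81 CPM, ratio interval 0.716 to 1.58). The effective number of sites is 1 divided by the sum of squared site shares. The shares used for it are of the reads at sites only, not of all reads in the window. It was 6.44 with scrambled and 2.05 with CF Im25 siRNA, and 6.49 and 2.25 in the RNase I pair. The other genes lay between 1.23 and 3.37 with CF Im25 and between 1.18 and 2.14 with CF Im68 siRNA, so HNRNPA3 was not the most concentrated of the 8 in either library.

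HNRNPA2B1 also used a downstream site more after CF Im25 siRNA, and here the downstream site was higher while the level of the main one was nearly the same. The site at 26229927 held 15.7% without siRNA, 20.0% with scrambled, 48.3% with CF Im25 and 20.5% with CF Im59 siRNA. It was 3.45-fold higher in CPM after CF Im25 siRNA (66.9 to 231, interval of the ratio 3.16 to 3.77). The main site, 1540 nt upstream at 26231467, stood at 182 and 184 CPM. The last site, at 26229548, was 2.22-fold lower (43.6 to 19.6 CPM), so the gain did not extend to the last site.

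The pair of HNRNPA2B1 changed by -28.7 points after CF Im25 siRNA (interval -31.0 to -26.3). With the last site against all other reads the direction turned, to 8.89 points. When ends were gathered within 10 nt in place of 25 nt, the 2 most used positions were 16 nt apart at the main site and the change was -0.533 points, which ends the call. In the RNase I libraries the main site held 94.7% with scrambled and 91.3% with CF Im68 siRNA, and its most frequent nucleotide lay 16 nt upstream of that in the alkaline libraries. The downstream site at 26229927 was 1.44-fold higher after CF Im68 siRNA (54.4 to 78.1 CPM, interval 1.25 to 1.65), and the last site was 2.18-fold lower (18.5 to 8.48 CPM).

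HNRNPA1 used its middle site less after both CF Im25 and CF Im68 siRNA. That site, at 54679033, held 16.3% without siRNA, 16.7% with scrambled, 6.82% with CF Im25 and 14.7% with CF Im59 siRNA, and 15.5% with scrambled and 5.80% with CF Im68 siRNA in the RNase I libraries. In CPM it was 1.26-fold lower after CF Im25 siRNA (interval 1.18 to 1.34) and 3.80-fold lower after CF Im68 siRNA (687 to 181 CPM, interval 3.60 to 4.01). The last site, at 54680871, held 61.0% with scrambled and 77.6% with CF Im25 siRNA, and 10.8% and 22.8% in the RNase I pair. It was also higher after CF Im59 siRNA, at 70.2%, 2.20-fold higher in CPM (725 to 1594). Without siRNA it held 63.4%, with 1.39-fold more CPM than with scrambled siRNA.

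The changes in proximal share of HNRNPA1 were -9.85 points after CF Im25, -9.18 points after CF Im59 and -11.4 points after CF Im68 siRNA, all short of the 20-point limit, and -2.50 points for no siRNA. RefSeq names 75 pseudogenes after HNRNPA1 on GRCh38.p14, 17 after HNRNPA3 and at most 9 after each of the other 6 genes. How reads that fit several places were assigned is not given in the sources used here, and the part of such reads in these values was not tested.

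HNRNPU encodes the largest of these proteins, also called scaffold attachment factor A, which binds RNA and DNA and organises chromatin. Its reads moved to the first of its 3 described sites in both the CF Im25 and the CF Im68 library. The site at 245017717 held 45.1% without siRNA, 45.0% with scrambled, 88.8% with CF Im25 and 57.8% with CF Im59 siRNA. With RNase I it held 12.8% with scrambled and 63.0% with CF Im68 siRNA. The alkaline controls differed by 0.122 points, and the CF Im59 value lay between them and the CF Im25 value.

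At HNRNPU the downstream sites were lower in CPM while the first was higher. The first site was 4.03-fold higher after CF Im25 siRNA (120 to 484 CPM, interval 3.78 to 4.30) and 2.26-fold higher after CF Im68 siRNA (63.8 to 144 CPM, interval 2.01 to 2.55). The second, 754 nt downstream at 245016963, was 2.61-fold and 4.55-fold lower. The last described one, at 245016691, had 275 and 36 reads in the CF Im25 comparison, 8.47-fold lower in CPM (interval 5.97 to 12.4), and 789 and 128 reads in the CF Im68 comparison, 14.3-fold lower (interval 11.9 to 17.4). Smaller sites lay beyond it, at 245014530, 245014474 and 245013601, each with at most 2.77% of the window's reads in any library.

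The proximal share of HNRNPU changed by 35.8 points after CF Im25 siRNA (interval 33.6 to 38.1) and by 52.4 points after CF Im68 siRNA (interval 49.6 to 55.1). It changed by 12.7 points after CF Im59 siRNA (interval 9.99 to 15.4) and by 0.167 points for no siRNA (interval -2.65 to 2.99). In both RNase I libraries the most frequent nucleotide of the second site lay 14 nt upstream of that in the alkaline libraries. With ends gathered within 10 nt, the change after CF Im68 siRNA was 12.8 points, which ends that call, and the change after CF Im25 siRNA was 33.0 points. The mean position of reads at the described sites was 620 nt upstream of the last one with scrambled and 970 nt with CF Im25 siRNA, and 286 and 793 nt in the RNase I pair.

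HNRNPD encodes AUF1, which binds AU-rich elements in 3' untranslated regions and affects the decay of the messages that carry them. Its first site, at 83275141, held 36.3% without siRNA, 40.8% with scrambled, 74.5% with CF Im25 and 41.8% with CF Im59 siRNA, and 22.6% with scrambled and 38.7% with CF Im68 siRNA in the RNase I libraries. The site was 4.24-fold higher in CPM after CF Im25 siRNA (37.7 to 160, interval 3.78 to 4.76) and 1.21-fold higher after CF Im68 siRNA (107 to 129, interval 1.09 to 1.33). The CF Im25 library stood apart from the other alkaline libraries, which lay between 36.3% and 41.8%.

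The site of HNRNPD that lies 154 nt downstream, at 83274987, was 1.26-fold higher in CPM after CF Im25 siRNA and 1.65-fold lower after CF Im68 siRNA. The last site, 1487 nt from the first at 83273654, was lower in both comparisons. It had 64 reads in the scrambled and 13 in the CF Im25 library, 5.46-fold lower in CPM (interval 2.98 to 10.8), and 52 and 1 reads in the RNase I pair, 121-fold lower (interval 20.7 to 4859). With CF Im59 siRNA it had 185 reads, 2.21-fold higher in CPM than with scrambled siRNA (interval 1.65 to 2.98), and without siRNA 183 reads, 1.52-fold higher (interval 1.14 to 2.05). The proximal share of HNRNPD changed by 23.4 points after CF Im25 siRNA (interval 19.2 to 27.7) and by 14.9 points after CF Im68 siRNA (interval 12.5 to 17.2), the latter short of the limit.

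HNRNPH1 encodes a protein that binds G-rich sequences and regulates splicing. Its upstream site, at 179041416, held 18.3% without siRNA, 23.8% with scrambled, 48.4% with CF Im25 and 22.7% with CF Im59 siRNA, and 11.7% with scrambled and 21.2% with CF Im68 siRNA in the RNase I libraries. It was 3.11-fold higher in CPM after CF Im25 siRNA (10.9 to 34.0, interval 2.49 to 3.91) and 2.26-fold higher after CF Im68 siRNA (26.7 to 60.5, interval 1.88 to 2.74). The downstream site, 227 nt away at 179041189, stood at 32.4 CPM in both libraries of the CF Im25 comparison and at 198 and 221 CPM in the CF Im68 comparison. Here too a higher level at 1 site came without a lower level at the other. Without siRNA the upstream site was 1.73-fold lower than with scrambled siRNA (interval 1.32 to 2.28). The proximal share changed by 26.0 points after CF Im25 siRNA (interval 20.2 to 31.4) and by 9.59 points after CF Im68 siRNA (interval 7.18 to 11.8).

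HNRNPC encodes a core nuclear protein that binds stretches of U and restrains the use of cryptic exons. The site at 21679097 held 17.9% without siRNA, 20.4% with scrambled, 39.3% with CF Im25 and 19.1% with CF Im59 siRNA, and 63.0% with scrambled and 78.6% with CF Im68 siRNA in the RNase I libraries. In CPM it was 1.66-fold higher after CF Im25 siRNA (37.4 to 62.0) and stood at 191 and 187 in the CF Im68 comparison. The proximal share, against the site 382 nt downstream at 21678715, changed by 17.7 points after CF Im25 siRNA (interval 13.5 to 21.9), short of the limit, and by 0.650 points after CF Im68 siRNA.

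The last 2 described sites of HNRNPC, which the pair does not include, were lower after both siRNAs. The last, at 21677309, was 3.87-fold lower in CPM after CF Im25 siRNA (199 and 57 reads, interval 2.87 to 5.29) and 8.51-fold lower after CF Im68 siRNA (187 and 51 reads, interval 6.22 to 11.8). The one before it, at 21677544, was 1.67-fold lower (interval 1.22 to 2.30) and 3.39-fold lower (interval 2.67 to 4.32). With CF Im59 siRNA these sites were 1.37-fold and 2.36-fold higher than with scrambled siRNA, and without siRNA they were 1.66-fold and 2.22-fold higher. The alkaline scrambled library was thus itself below the no siRNA library there, with 10.9 against 24.2 CPM at 21677544, and the CF Im25 library, with 6.54 CPM, was below both.

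HNRNPK encodes a protein whose KH domains bind C-rich RNA and DNA. Its 3 sites lie within 187 nt, and the change in proximal share was small: 7.63 points after CF Im25 siRNA (interval 0.865 to 14.9), 2.15 points after CF Im59 siRNA, 4.30 points after CF Im68 siRNA and 6.34 points for no siRNA. All 3 sites were lower in CPM after CF Im68 siRNA. The middle site, at 86583094, was 2.23-fold lower after CF Im25 siRNA (291 and 145 reads) and 4.68-fold lower after CF Im68 siRNA (232 and 115 reads). The last, at 86582999, was 3.19-fold lower (138 and 48 reads) and 5.42-fold lower (35 and 15 reads).

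**Figure D3:**
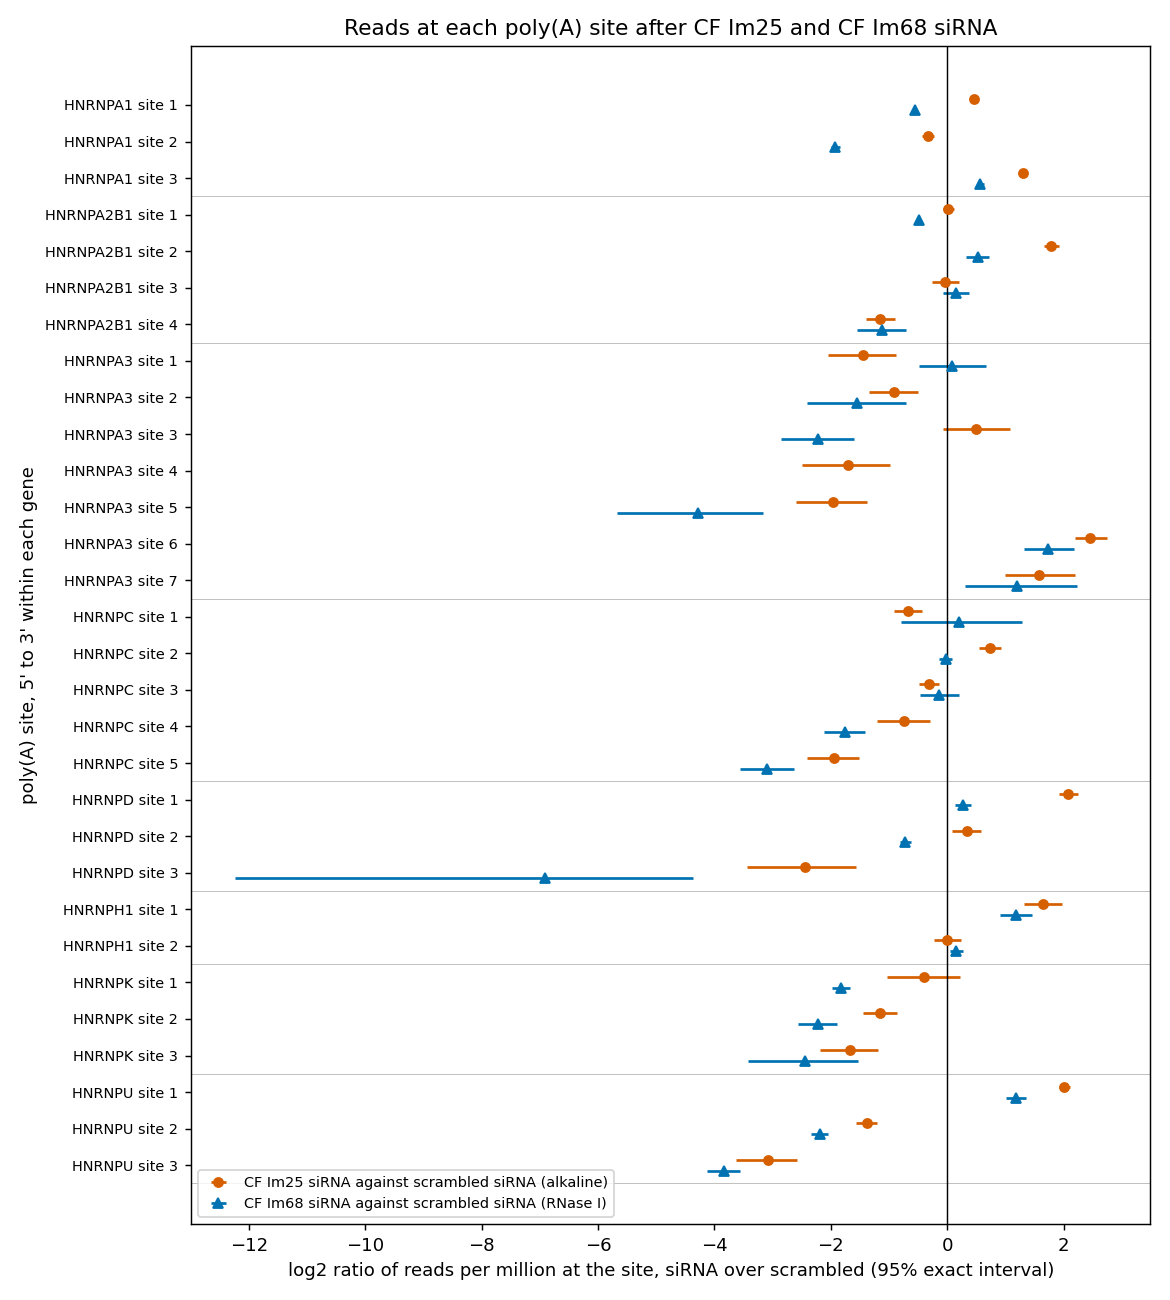
The log2 ratio of CPM at each described site, siRNA over scrambled, is on the x axis, and the sites of each gene are on the y axis from 5' to 3'. Circles are CF Im25 siRNA, triangles CF Im68 siRNA, and lines 95% exact intervals. Site 4 of HNRNPA3 has no triangle because its CF Im68 library held 0 reads. The last sites of HNRNPC, HNRNPD, HNRNPK and HNRNPU lie left of 0 for both, and sites 6 and 7 of HNRNPA3 and the first site of HNRNPU lie right of 0 for both.

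Across the 30 described sites, 18 were lower and 9 higher in share after CF Im25 siRNA with an interval that excluded 0, and 16 were lower and 9 higher after CF Im68 siRNA. Among all such sites of units with several, 28% were lower and 27.2% higher after CF Im25 siRNA, and 31.2% and 27.7% after CF Im68 siRNA. Lower after both were 14 sites, which is 14 of the 18 and 14 of the 16. Higher after both were 8 sites, 8 of 9 in each list, and 1 site was called in opposite directions. Of all sites with enough reads in both comparisons, 17.7% were lower and 16.8% higher in both. Those lower in both made up 60.4% of the CF Im25 list and 55.8% of the CF Im68 list, and those higher in both 59.4% and 60.2%. The windows were read more deeply than most units, which narrows their intervals, so these shares are not matched on depth. Site shares of the 8 genes were taken of all reads in the window, and those of all units of reads at the unit's sites. The same holds for the last described site below. Shares within a window sum to its total, so sites of a gene are not independent of each other. The last described site held a lower share in 6 of 8 genes after CF Im25 siRNA and in 5 after CF Im68 siRNA, where 43.1% and 51.3% of all units with several sites did so. It held a higher share in 2 genes in each comparison, HNRNPA1 and HNRNPA3, against 13.4% and 8.65% of units. In HNRNPA3 smaller sites lie beyond it, and they held lower shares in both comparisons. After CF Im59 siRNA the last site was lower in 1 gene and higher in 3 (13.1% and 28.9% of units), and for no siRNA in 0 and 4 genes (10.4% and 24.9%). The effective number of sites was lower in 6 of the 8 genes after CF Im25 siRNA (46.3% of units), in 7 after CF Im59 siRNA (53.2%), in 4 after CF Im68 siRNA (48.8%) and in 4 for no siRNA (56.1%), counted without an interval.

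Total reads of a window stand for the level of polyadenylated transcripts as the assay captured them. They also differed between fragmentation methods: the 2 scrambled siRNA libraries gave 335 and 2530 CPM for HNRNPA2B1. In bulk RNA, fewer cells that express a gene and less RNA per cell cannot be told apart. A total is called when the ratio reaches 2-fold, its interval excludes 1 and either library holds 50 or more reads. Totals of the 8 genes count all reads in the window, and those of units only the reads at their sites. After CF Im25 siRNA, HNRNPD and HNRNPU were called higher and HNRNPK lower, where 13.3% of units were called higher and 11.9% lower (25.2% in all). The median log2 ratio of the 8 genes was 0.67, against 0.01 over the 14983 units tested. After CF Im68 siRNA, HNRNPK and HNRNPU were called lower (6.84% of units) and none higher (11.3%), with 18.1% of units called in all. The median log2 ratio was -0.47, against 0.08 over 13531 units. No gene was called after CF Im59 siRNA, where 19.6% of units were (8.99% higher, 10.6% lower), or for no siRNA, where 8.57% were (4.44% higher, 4.13% lower).

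HNRNPK had 66.0 CPM without siRNA, 55.0 with scrambled, 25.1 with CF Im25 and 77.4 with CF Im59 siRNA, and 225 with scrambled and 62.1 with CF Im68 siRNA in the RNase I libraries. It was the lowest of the 4 alkaline libraries after CF Im25 siRNA and the lower of the RNase I pair after CF Im68 siRNA. The total was 2.19-fold lower after CF Im25 siRNA (interval 1.88 to 2.55) and 3.62-fold lower after CF Im68 siRNA (interval 3.30 to 3.98). It was the only member called lower in both comparisons, which share no library.

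HNRNPU had 208, 267, 545 and 311 CPM in the alkaline libraries without siRNA and with scrambled, CF Im25 and CF Im59 siRNA, and 497 and 229 CPM with scrambled and CF Im68 siRNA in the RNase I libraries. Its total was 2.04-fold higher after CF Im25 siRNA (interval 1.95 to 2.14) and 2.17-fold lower after CF Im68 siRNA (interval 2.06 to 2.29), although the proximal share was higher in both. The call after CF Im68 siRNA is lost with TMM scaling and with median of ratios scaling, which move all units by 0.18 and 0.16 on the log2 scale in that comparison and give log2 ratios of -0.94 and -0.96. In the same order, HNRNPD had 96.0, 92.3, 214 and 139 CPM, and 475 and 334 CPM. It was 2.32-fold higher after CF Im25 siRNA (interval 2.15 to 2.51) and 1.42-fold lower after CF Im68 siRNA.

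HNRNPA1 had 1594 CPM without siRNA, 1187 with scrambled, 2315 with CF Im25, 2269 with CF Im59 siRNA, and 4428 and 3118 CPM with scrambled and CF Im68 siRNA in the RNase I libraries. Its ratio was 1.95 after CF Im25 siRNA and 1.91 after CF Im59 siRNA, and 1.34 for no siRNA against the same control. HNRNPA3 ranged from 63.7 to 112 CPM over the 6 libraries, with the highest value after CF Im25 siRNA. HNRNPC was at 184 and 158 CPM in the CF Im25 and at 303 and 238 CPM in the CF Im68 comparison. HNRNPH1 had 46.0 and 70.4 CPM and then 229 and 285 CPM, which made it the only member higher after CF Im68 siRNA. HNRNPA2B1 had 335 and 478 CPM and then 2530 and 1878 CPM.

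**Figure D4:**
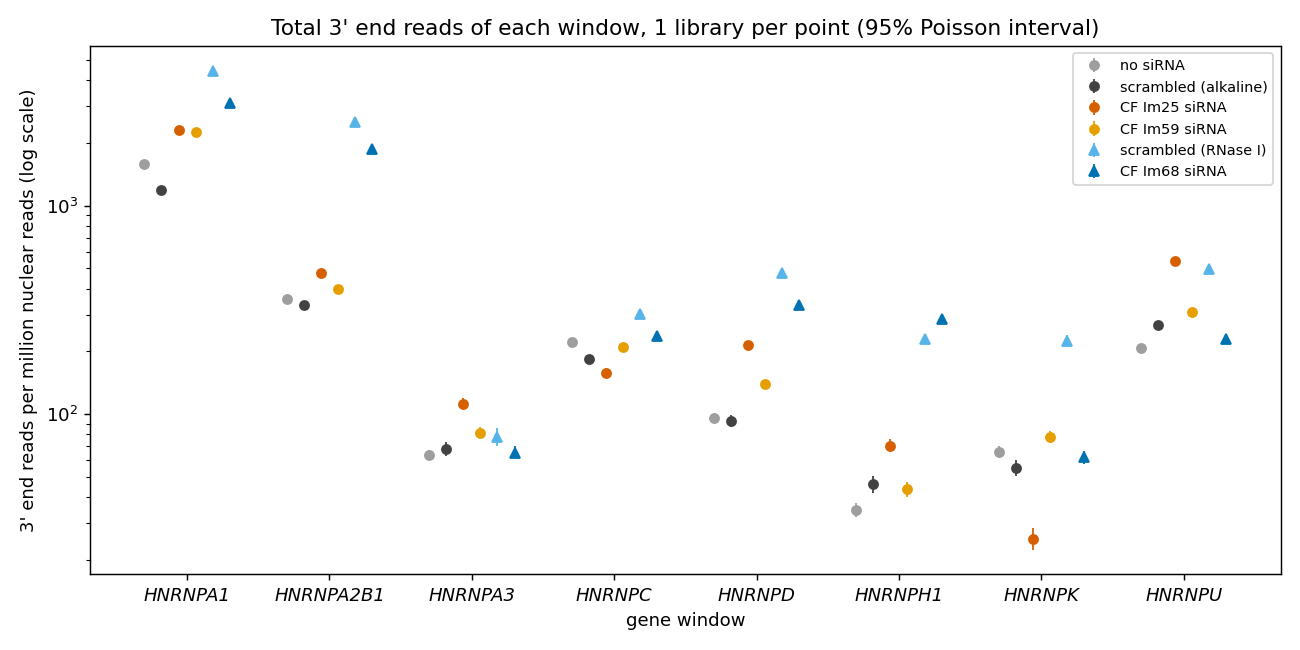
Total reads of each window are plotted in CPM on a log y axis, with genes on the x axis, circles for the alkaline and triangles for the RNase I libraries and 95% Poisson intervals as lines. HNRNPK is lowest after CF Im25 siRNA at 25.1 CPM, and the RNase I libraries lie above the alkaline scrambled siRNA library in most genes.

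CF Im25 and CF Im59 siRNA were also compared directly, in libraries of the same fragmentation that use no control. In site use, HNRNPC, HNRNPD, HNRNPH1 and HNRNPU were more proximal with CF Im25 siRNA, by 21.3, 24.7, 27.3 and 23.1 points, where 19.0% of units were called in that direction. HNRNPA2B1 and HNRNPA3 were more distal, by -29.3 and -54.1 points, where 1.09% of units were called (20.1% in both directions). The direction of HNRNPA2B1 turned to 3.76 points with ends within 10 nt and to 7.56 points with the last site against all other reads, and HNRNPH1 alone was called in that last setting. HNRNPA1 differed by -0.669 points (interval -1.35 to 0.0121) and HNRNPK by 5.48 points (interval -0.692 to 12.5). In total reads HNRNPK was 3.08-fold lower with CF Im25 than with CF Im59 siRNA (interval 2.69 to 3.54), the only call among the 8, where 3.52% of units were called lower and 5.85% higher (9.37% in all).

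Among the 8 genes HNRNPA1 had the highest level in every library, followed by HNRNPA2B1 in all but the CF Im25 library, where HNRNPU came second. A read marks 1 transcript end, so levels of different genes need no correction for length. Whether sites of different genes are captured equally well was not tested. The lowest was HNRNPH1 without siRNA and with scrambled (alkaline) and CF Im59 siRNA, HNRNPK with CF Im25 and CF Im68 siRNA, and HNRNPA3 with scrambled siRNA (RNase I). Neighbours in this order whose intervals overlapped were HNRNPK and HNRNPA3 without siRNA and with CF Im59 and CF Im68 siRNA, and HNRNPK and HNRNPH1 in both scrambled siRNA libraries. HNRNPU overlapped HNRNPD with scrambled siRNA (RNase I) and HNRNPC with CF Im68 siRNA. None overlapped with CF Im25 siRNA.

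The genes most alike in their levels over the 6 libraries were HNRNPA2B1 and HNRNPH1, whose centred log2 CPM differed by 0.29 (root mean square). HNRNPA3 and HNRNPU differed by 0.33, and HNRNPA1 and HNRNPD by 0.34. HNRNPC was nearest to HNRNPA1 (0.48) and HNRNPK to HNRNPC (0.66). These distances describe 6 libraries made by 2 fragmentation methods, and the level of 5 of the genes differed more than 2-fold between the methods.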

How the data were processed

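The authors deposited counts, 1 file per library: for each nucleotide and strand, the unscaled number of read 3' ends. The builds hg19 and GRCh37 appear in the submitters' processing notes. For the aligner, the read filters and the handling of duplicates or internal priming, nothing is given in the sources used here. The reference at hand was GRCh38, so no annotation or sequence was used and nothing was converted between builds; RefSeq served only to count pseudogene names.

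Sites were called on the 6 libraries pooled at equal weight (25 nt radius, mean CPM of at least 1), giving 49965 sites, 28114 units and 8999 two-site units from 2438055 positions. Kept nuclear sites held 91.3% to 92.6% of nuclear reads. Shares have Wilson, differences Newcombe, ratios exact conditional binomial and levels exact Poisson intervals at 95%. Calls were made across all units with the rules given above. Code ran in Python 3.11.15 (numpy 2.4.6, pandas 2.3.3, scipy 1.17.1) and was tested on simulated data; edgeR 4.0.16 gave TMM factors only. All 8 members and each site with at least 5% of its window are named. Members, lists and rules were chosen with earlier results of these data known. Alternatives covered the site radius, limits, minimum reads, scaling, site definition, depth and, for CF Im25 and CF Im59, the control. The knockdown targets and other HNRNP genes are not analysed here.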

Additional observations from a re-analysis of the deposited data

Results flagged for a closer look

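Total reads of HNRNPU were called in opposite directions in 2 comparisons that share no library. The ratio to scrambled siRNA was 2.04 after CF Im25 siRNA with alkaline hydrolysis and 0.461 after CF Im68 siRNA with RNase I. The call after CF Im68 siRNA was lost with TMM scaling and with median of ratios scaling. The scrambled siRNA libraries themselves stood at 267 and 497 CPM. The difference between the knockdowns was not tested, and with 1 library per group knockdown and fragmentation method cannot be told apart.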

How the results depend on the processing

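The 12 counts of called genes were recomputed in 106 alternatives, of which 90 stayed within 1.5 times the main count. In site use, CF Im25 siRNA gave 5 calls, but 2 at 30 points and 1 (HNRNPH1) when the last site was set against all other reads; CF Im68 siRNA gave 2, but 1 with ends within 10 nt, 4 at 10 points and 1 (HNRNPU) with the last site. CF Im59 siRNA gave 0, but 2 at 10 points and 1 (HNRNPA3) with libraries thinned to the smallest total. RNase I against alkaline gave 6, but 3 with the last site, and CF Im25 against CF Im59 siRNA gave 6, but 1 at 30 points and 1 with the last site. In total reads, CF Im25 siRNA gave 3 and 6 at 1.5-fold, CF Im59 siRNA 0 and then 1 (HNRNPA1) with median of ratios scaling and 2 at 1.5-fold, CF Im68 siRNA 2 and then 1 with TMM scaling and 1 by median of ratios, and CF Im25 against CF Im59 siRNA 1 and 4 at 1.5-fold.

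Of 267 alternatives for the 30 called values of single genes, 239 kept the call and its direction, 27 lost the call and 1 was called in the other direction. The sign was reversed in 6, counting those that also lost the call. With the last site against all other reads, HNRNPA2B1 changed by 8.89 points after CF Im25 siRNA and by 7.56 points against CF Im59 siRNA, and between RNase I and alkaline HNRNPC changed by -0.663 and HNRNPD by 5.16 points. With ends within 10 nt, HNRNPA2B1 changed by 3.76 points for CF Im25 against CF Im59 siRNA and HNRNPU by 22.1 points for RNase I against alkaline. The alternatives with the last site compare other reads than the main pair, and so does the 10 nt radius for HNRNPA2B1. For HNRNPU in the RNase I libraries, the 10 nt radius leaves out the most frequent end of the second site, 14 nt away. That end held 62.3% of the site's reads with scrambled and 39.5% with CF Im68 siRNA. For the other changed counts the limit was moved by construction, or the cause was not tested.

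With no siRNA as the control, CF Im25 siRNA gave 6 calls in site use (HNRNPC in addition) and 4 in total reads (HNRNPH1 in addition), and CF Im59 siRNA 0 and 0. TMM and median of ratios scaling moved all units by 0.14 and 0.22 on the log2 scale for RNase I against alkaline, and by at most 0.10 in comparisons within the alkaline libraries. No paired analysis was possible because each group held 1 library.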
